A study of Mus musculus with 6 samples.

Results

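The genes described here are those of the NMDA receptor, a glutamate-gated ion channel of excitatory synapses. They are Grin1, which encodes GluN1, Grin2a to Grin2d, which encode the GluN2 subunits, Grin3a and Grin3b, which encode the GluN3 subunits, and Grina, whose name derives from this family. They were found by gene symbol, and all 8 were among the 54040 genes of the count and FPKM tables. RNA was sequenced from dentate gyrus of C57BL/6 mice at postnatal day 40, with 3 libraries labelled cKO, in which the series places a knockout of the m6A reader YTHDF2 in granule cells, and 3 labelled Ctrl, described as a negative control. Both groups shared strain, age and tissue. The sources used here name no Cre driver, no deleted exons, no alleles of the controls and no number of animals behind a library. The p-values therefore measure the spread between libraries, which may be technical. Granule cell stands as the labelled cell type, but no sorting is named, so each value is treated as that of a tissue piece, in which fewer cells of a type and less RNA per cell cannot be told apart.

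An NMDA receptor passes calcium when glutamate and a co-agonist, glycine or D-serine, are bound and depolarisation has relieved its magnesium block. GluN1 binds the co-agonist and is needed in every receptor, GluN2 subunits bind glutamate and set how long the channel stays open, and GluN3 subunits bind glycine and lower calcium flow. In granule cells these receptors take part in long-term potentiation of the input from entorhinal cortex, and the forebrain shifts from Grin2b towards Grin2a as it matures. Grina encodes a membrane protein of the TMBIM family, which is linked to calcium stores and cell survival, and is not a channel subunit. It was therefore left out of the subunit sums.

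The subunit genes encode related proteins from differing bases. The longest run of residues identical in all 7 subunits held 7 residues, in the membrane segment that forms the gate, and the coding sequence around it is shown for Grin1, Grin2c and both GluN3 genes because base composition moved with the measured changes described later. Each stretch of 57 bases (19 codons, GENCODE M21 on GRCm38, coding strand, 5′ to 3′) has capitals where the last base of a codon is G or C.
Grin1: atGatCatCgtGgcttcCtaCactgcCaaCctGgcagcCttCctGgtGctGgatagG
Grin2c: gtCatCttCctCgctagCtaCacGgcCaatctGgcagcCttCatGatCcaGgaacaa
Grin3a: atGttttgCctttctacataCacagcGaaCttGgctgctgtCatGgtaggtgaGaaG
Grin3b: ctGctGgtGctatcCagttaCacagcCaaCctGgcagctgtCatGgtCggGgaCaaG

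The last base in these stretches was G or C in 15 codons of Grin1, in 14 of Grin2c and Grin3b and in 10 of Grin3a. Over the whole coding sequence the share of codons that end in G or C was 58.9% in Grin3a, 64.6% in Grin2a, 67.5% in Grin2b, 71.3% in Grin1, 73.1% in Grin3b, 74.7% in Grin2c and 78.5% in Grin2d. Grin3a thus had the fewest such codons among the 4 stretches shown and the lowest share over the whole coding sequence of the 7 subunit genes. The longest stretch of coding bases shared exactly by a pair of members was 34 bases, between Grin2b and Grin2c, and Grin1 shared at most 14 with any other subunit gene. No source used here names the read length.

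Each gene lies on a chromosome of its own in GRCm38, and the genes differ widely in size. Grin2b (ENSMUSG00000030209) spans chr6:135713233-136173511, Grin2a (ENSMUSG00000059003) chr16:9567898-9995560 and Grin3a (ENSMUSG00000039579) chr4:49661611-49845744, all on the minus strand. Grin1 (ENSMUSG00000026959), at chr2:25291181-25319187, Grin2c (ENSMUSG00000020734), at chr11:115249169-115267243, and Grin2d (ENSMUSG00000002771), at chr7:45831883-45878378, are shorter and also on the minus strand. Grin3b (ENSMUSG00000035745), at chr10:79970715-79977190, and Grina (ENSMUSG00000022564), at chr15:76246764-76249904, are the shortest and lie on the plus strand. GENCODE M21 lists 14 transcripts of Grin1, 8 of them coding, and gene counts do not tell these splice forms apart.

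Library totals ran from 16794642 to 19190101 counts, and 16928 genes passed the low-count filter, among them all 8 members. Ythdf2, the targeted gene, lay at 56.8, 56.5 and 54.5 CPM (library-scaled counts, with TMM factors) in cKO replicates 1 to 3 and at 37.9, 68.6 and 68.4 CPM in Ctrl replicates 1 to 3. The library labelled Ctrl replicate 1 had the lowest Ythdf2 level of all 6, which goes against its label. No difference between the groups was called for Ythdf2 (log2 fold change -0.06 ± 0.15 SE, edgeR quasi-likelihood adjusted p = 0.882). Leaving that library out gave -0.29 with an edgeR adjusted p of 0.00951. The same library also lay farthest from its own group, at 4.70 and 4.49 chi-square per degree of freedom against 2.71 to 3.47 for the other pairs. The main calls of Grin1, the antisense gene Grin1os, Ppp3ca and Shank1, and the counts of markers called, are therefore also given without it. Markers of dentate granule cells summed to 2840 to 2940 CPM in cKO and 2684 to 2908 CPM in Ctrl, beside 5549 to 6102 CPM for astrocyte markers and 1453 to 1650 CPM for oligodendrocyte markers. Such sums depend on the genes listed and do not compare amounts of cells. The astrocyte marker Slc1a2 alone had means of 2974 CPM in cKO and 3197 CPM in Ctrl.

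FPKM, which divides counts by gene length and library size, gave the same order of the members in every library: Grina, Grin1, Grin2b, Grin2a, Grin2c, Grin3a, Grin2d and Grin3b. Grin1, the obligatory subunit, lay at 42.5, 43.0 and 45.2 FPKM in cKO and 38.3, 39.5 and 39.2 FPKM in Ctrl. Grin2b, the glutamate-binding subunit gene that leads in the young forebrain, lay at 35.2, 34.2 and 33.1 FPKM in cKO and 34.6, 35.5 and 33.3 FPKM in Ctrl. Grin2a, which leads in much of the mature forebrain, lay at 27.1, 24.8 and 25.2 FPKM in cKO and 26.8, 25.1 and 25.4 FPKM in Ctrl. The 3 genes were close in level, with Grin1 above Grin2b and Grin2b above Grin2a in every library. Grin1 exceeded Grin2b by 1.11 to 1.37 times and Grin2b exceeded Grin2a by 1.29 to 1.42 times in 6 of 6 libraries.

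The other subunit genes were lower. Grin2c, best known from cerebellar granule cells and also found in astrocytes, lay at 11.6, 13.1 and 13.5 FPKM in cKO and 10.7, 10.5 and 11.9 FPKM in Ctrl. Grin3a, a subunit of immature synapses, ranged from 2.626 to 3.402 FPKM. Grin2d, a subunit of interneurons and early development, ranged from 1.96 to 2.46 FPKM and was below Grin3a in each of the 6 libraries by 1.10 to 1.54 times. Grin3b, best known from motor neurons, had only 5, 8 and 13 counts in cKO and 11, 4 and 17 in Ctrl, which is 0.0717 to 0.267 FPKM. Grina was far above all subunit genes at 309.1, 298.7 and 301.3 FPKM in cKO and 292.6, 274.7 and 291.0 FPKM in Ctrl, 6.66 to 7.65 times the Grin1 level on the deposited lengths. No pair of neighbours in this order overlapped over the 6 libraries.

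**Figure D1:**
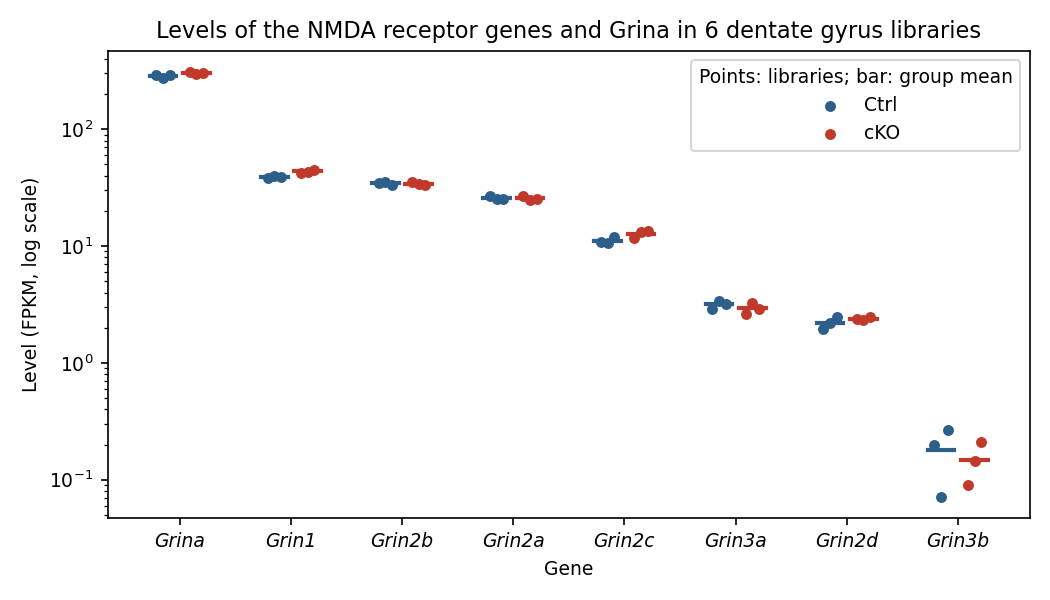
Level of each gene in FPKM (log axis) in the 3 Ctrl (blue) and 3 cKO (red) libraries, with the group mean as a bar. The order of genes was the same in all 6 libraries, and Grin3b lay 9.20 to 30.8 times below Grin2d.

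Subunit proportions were taken within each library as shares of the summed FPKM of the 7 subunit genes. Grin1 made up 34.7% ± 1.36 (SD, n = 6 libraries), Grin2b 28.9% ± 1.23, Grin2a 21.7% ± 1.05, Grin2c 10.02% ± 0.823, Grin3a 2.57% ± 0.279, Grin2d 1.94% ± 0.141 and Grin3b 0.138% ± 0.0652. Within the GluN2 genes alone, Grin2b held 46.2% ± 1.27, Grin2a 34.6% ± 1.06, Grin2c 16.0% ± 1.61 and Grin2d 3.10% ± 0.257. Transcripts for both main glutamate-binding subunits were thus abundant at this age, with Grin2b ahead of Grin2a in all 6 libraries.

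The proportions depended on the length by which counts were divided. The deposited length of each member equals the union of all its annotated exons, which for Grin1 is 9700 bases against 4276 in its longest coding transcript, while for Grin2b the values are 24842 and 24060. With the longest coding transcript the Grin1 share was 51.7%, with the coding sequence 29.8%, and with no length (CPM) 21.9%. The Grin2b share of GluN2 was 43.2%, 60.5% and 61.4% under the same choices, and with the coding sequence or no length Grin2b, not Grin1, was the largest of the 7. The Grin2a share of GluN2 moved less, to 38.4%, 33.1% and 33.2%. The level of Grina over Grin1 was 3.52 to 4.04 times with the longest coding transcript, 3.94 to 4.52 times with the coding sequence and 1.42 to 1.63 times with no length, and in CPM Grin2b stood above Grina in all 6 libraries. Grina, had it been counted among the subunits, would have taken 71.3% of the sum and left Grin1 9.98%.

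**Figure D2:**
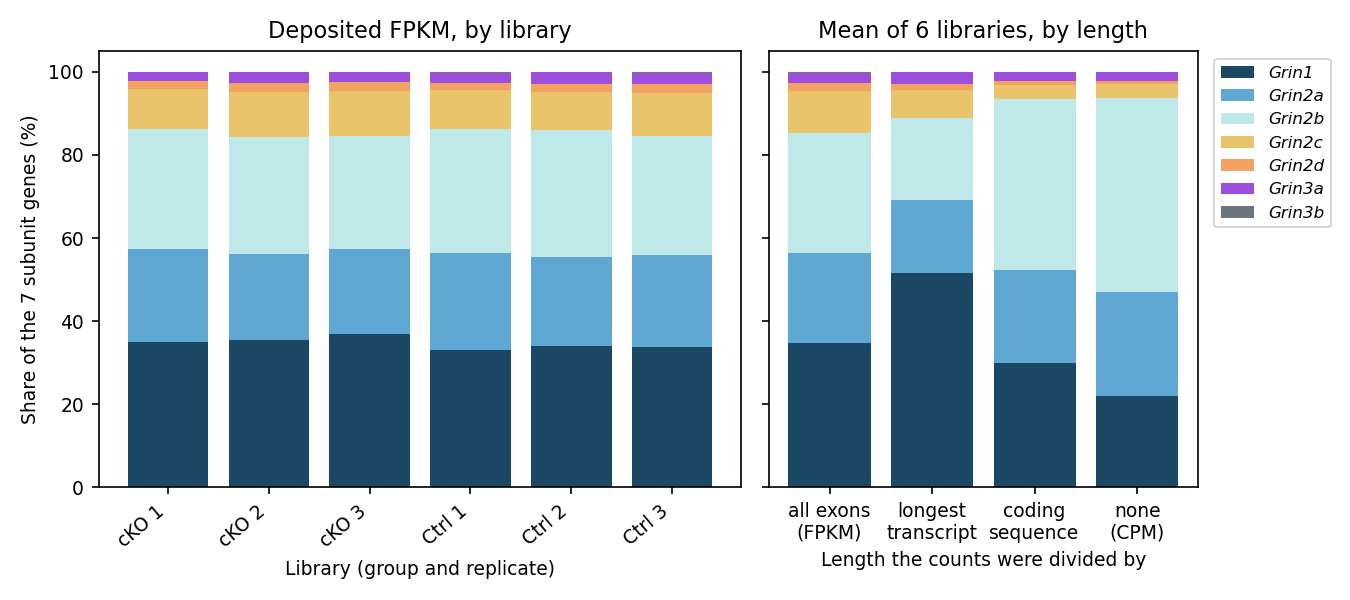
Stacked shares (%) of the 7 subunit genes, in each library from the deposited FPKM (left) and as the mean of 6 libraries under 4 choices of length (right). The shares are alike across libraries, while the Grin1 share runs from 21.9% to 51.7% with the length used.

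Between the groups, the Grin1 share was 34.97%, 35.57% and 36.91% in cKO and 33.15%, 33.97% and 33.88% in Ctrl. All cKO libraries lay above all Ctrl libraries, by 2.15 percentage points on average. The exact two-sided permutation test gave p = 0.1, which is the smallest that 3 libraries against 3 allow, and 0.44 after Benjamini-Hochberg adjustment over 11 shares. The shares of the other 6 genes, and all 4 shares within GluN2, overlapped between the groups on the deposited FPKM, with exact permutation p of 0.2 to 0.7. This too moved with the length. The Grin2b share was lower in all cKO libraries with the longest coding transcript (a difference of -1.41 percentage points), with the coding sequence (-1.68) and with Grina in the sum (-0.533), and with Grina in the sum the Grin1 share overlapped. The Grin2c share of GluN2, for example, was 15.3%, 17.6% and 18.2% in cKO and 14.5%, 14.4% and 16.3% in Ctrl.

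Ratios within a library, in which library scaling cancels, were compared for 4 pairs. The ratio of Grin2a to Grin2b was 0.769, 0.725 and 0.760 in cKO and 0.776, 0.707 and 0.762 in Ctrl. The groups overlapped, and the log2 ratio differed by 0.01 (exact permutation p = 0.9). The ratio of summed GluN2 to Grin1 was 1.80, 1.73 and 1.64 in cKO and 1.94, 1.86 and 1.86 in Ctrl. All cKO libraries were lower, with a log2 difference of -0.13 (exact permutation p = 0.1, 0.2 after Benjamini-Hochberg adjustment over the 4 ratios). The ratio of summed GluN3, the subunits that lower calcium flow, to Grin1 was 0.0639, 0.0789 and 0.0688 in cKO and 0.0808, 0.0880 and 0.0883 in Ctrl. It too was lower in all cKO libraries, with a log2 difference of -0.29 (exact permutation p = 0.1, adjusted 0.2). Leaving out the library labelled Ctrl replicate 1, the log2 differences were -0.11 and -0.33 (exact permutation p = 0.2 each). That p is the smallest that the remaining libraries allow. Grin1 is the denominator of both ratios, so they are not independent of each other or of the Grin1 share. None of these shares and ratios is adjusted for base composition, in which Grin1 (59.4% GC) differs from Grin2a (44.8%) and Grin2b (45.7%). With the offsets for GC content and length described below, the log2 fold changes of the 3 genes were 0.05, -0.01 and -0.03. Grin3a (49.2% GC), the higher of the GluN3 genes, had -0.11 ± 0.08 without the offsets and -0.13 ± 0.08 with them.

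**Figure D3:**
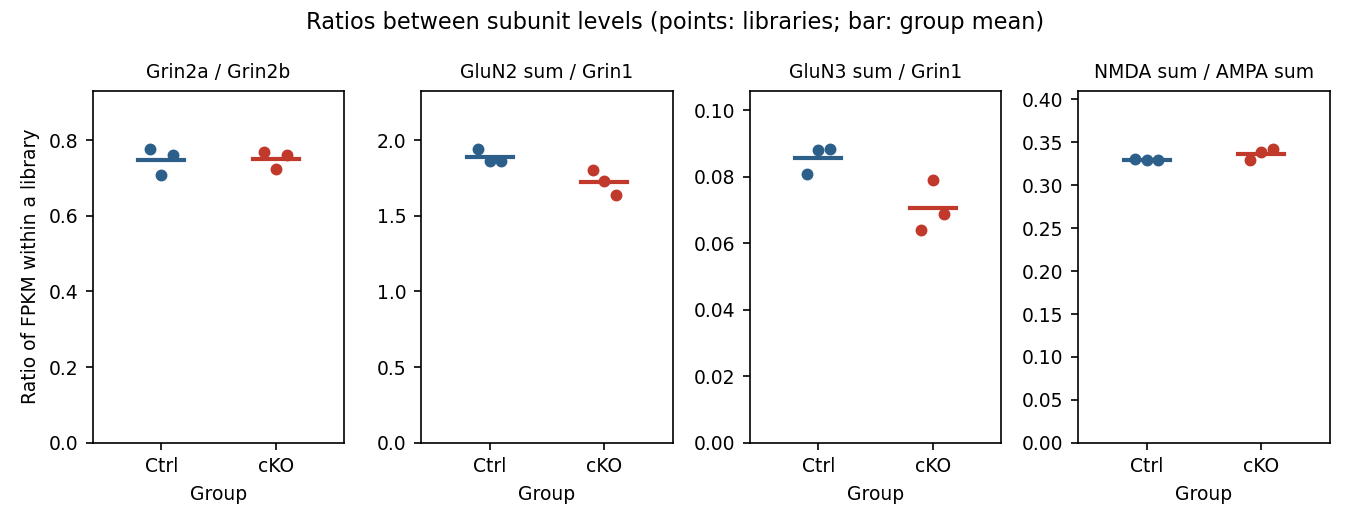
Ratios of FPKM within each library in Ctrl (blue) and cKO (red), each axis starting at 0, with points for libraries and bars for group means. The groups do not overlap for GluN2 to Grin1 and GluN3 to Grin1, and overlap for Grin2a to Grin2b and for NMDA to AMPA subunits.

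The AMPA receptor subunit genes Gria1 to Gria4, whose channels carry fast excitatory current, summed to a higher level. The NMDA sum was 0.330, 0.339 and 0.342 of the AMPA sum in cKO and 0.331, 0.329 and 0.330 in Ctrl. These ranges overlapped, and the log2 ratio differed by 0.03 (exact permutation p = 0.3, adjusted 0.4). The longest coding transcript gave a log2 difference of 0.05 with all cKO libraries higher (exact permutation p = 0.1), the coding sequence 0.01 and CPM -0.01, so its sign and the overlap rest on the length used.

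In the test of each gene, 1 of the 8 members passed in the cKO against Ctrl comparison, where 3.95% of all tested genes did (3.07% higher and 0.874% lower in cKO). Grin1 rose from 379.4 ± 5.30 CPM in Ctrl to 425.4 ± 14.4 CPM in cKO (SD, n = 3 each), and no member fell. Its libraries read 414.4, 419.9 and 441.7 CPM in cKO and 373.6, 384.0 and 380.7 CPM in Ctrl, without overlap. The log2 fold change was 0.16 ± 0.04 (SE), a fold of 1.12, with an edgeR adjusted p of 0.0292. Leaving out the library labelled Ctrl replicate 1 gave 0.15 with an adjusted p of 0.0513, in a fit that called 2.91% of 17305 genes (2.21% higher and 0.705% lower in cKO). The call was also lost without cKO replicate 2 (adjusted p = 0.0666), cKO replicate 3 (0.176), Ctrl replicate 2 (0.0726) or Ctrl replicate 3 (0.0742), and was kept only without cKO replicate 1 (0.0463).

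Neither main GluN2 gene passed. Grin2a lay at 488.1, 447.9 and 454.3 CPM in cKO and 483.8, 450.7 and 455.5 CPM in Ctrl. Grin2b lay at 879.1, 855.3 and 828.2 CPM in cKO and 864.2, 883.5 and 828.1 CPM in Ctrl. Both overlapped between groups, with log2 fold changes of 0.00 ± 0.04 (edgeR adjusted p = 0.999) and -0.01 ± 0.04 (adjusted p = 0.957), signs that change with the setting.

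Grin2c lay at 58.9, 66.6 and 68.4 CPM in cKO and 54.5, 53.2 and 60.1 CPM in Ctrl. Its log2 fold change, 0.21 ± 0.07, was the largest positive one of the members and did not pass (edgeR adjusted p = 0.101), and cKO replicate 1 lay below Ctrl replicate 3. With no low-count filter its adjusted p was 0.0327. Grin2d had a log2 fold change of 0.12 ± 0.10 (adjusted p = 0.595) on 220 to 316 counts a library. The GluN3 genes did not pass either, with -0.11 ± 0.08 for Grin3a (adjusted p = 0.537) and -0.27 ± 0.49 for Grin3b (adjusted p = 0.837), where the width of the error follows from 58 counts in all.

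Grina lay at 642.8, 621.8 and 627.1 CPM in cKO and 608.8, 569.6 and 601.9 CPM in Ctrl. Its groups did not overlap, yet its log2 fold change of 0.09 ± 0.04 did not pass (edgeR adjusted p = 0.249). Groups without overlap were common, at 22.9% of tested genes (12.5% higher in cKO), and among the 8 members they were 2, Grin1 and Grina, both higher. Over the 8 members the median log2 fold change was 0.04, beside -0.001 over all tested genes, and with the offsets for GC content and length it was -0.004, beside -0.02.

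**Figure D4:**
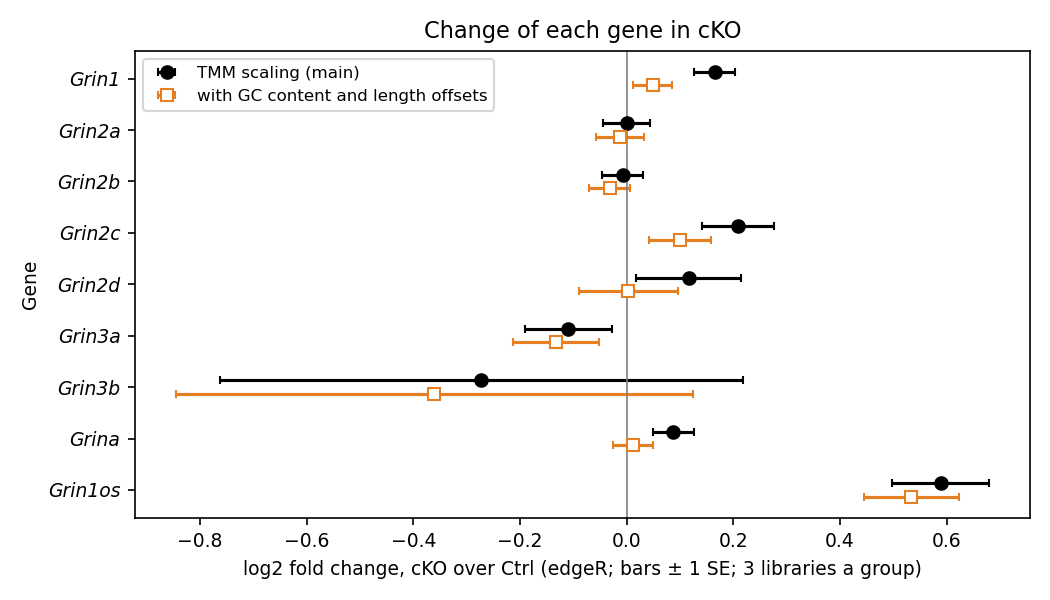
Log2 fold change of cKO over Ctrl with its SE (edgeR, 3 libraries a group), with TMM scaling (black circles) and with added offsets for GC content and gene length (open orange squares), for the 8 members and the antisense gene Grin1os. Grin1 moves from 0.16 to 0.05 with the offsets, and Grin1os from 0.59 to 0.53.

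Base composition moved with the fold changes. Over all tested genes the median log2 fold change went from -0.06 in genes with 35 to 40% GC in their longest annotated transcript to 0.09 in genes with 60 to 65%, and the share of genes that rose went from 0.629% to 11.6%. Grin1 (59.4% GC) and Grina (58.8%) lie in the bin of 55 to 60%, where the median was 0.06 and 7.87% of genes rose. Grin2c (62.1%), Grin3b (63.4%) and Grin2d (65%) are richer still, while Grin2a (44.8%), Grin2b (45.7%) and Grin3a (49.2%) lie below the median of 49.8%. Of the 5 members above 55% GC, 4 had a positive log2 fold change, the exception being Grin3b. With offsets for GC content and gene length fitted per library, Grin1 had a log2 fold change of 0.05 ± 0.04 (edgeR adjusted p = 0.557), Grin2c 0.10 (adjusted p = 0.427) and Grina 0.01 (adjusted p = 0.919). No member passed in that edgeR fit, where 2.58% of genes did (1.65% higher and 0.922% lower in cKO). An unadjusted p under 0.05 was found for 0 of 8 members there, against 3 of 8 without the offsets. The share of all tested genes under that p is not given here for either fit. Calls over all tested genes fell as well, from 668 to 436.

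**Figure D5:**
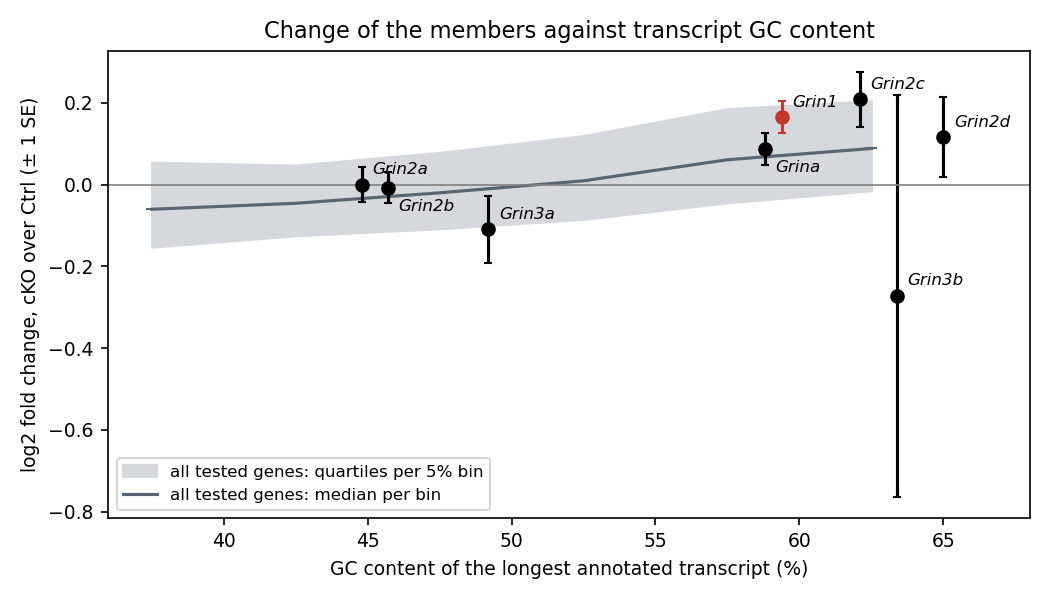
Log2 fold change (± 1 SE, 3 libraries a group) of each member against the GC content (%) of its longest annotated transcript, over the median and quartiles of all tested genes in bins of 5%. Grin1, in red, lies above its bin's median of 0.06, and the 3 members under 50% GC are at or below 0.00.

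The letters GGACT, the core of the m6A consensus, were counted on the transcript strand of the longest coding transcript, as a description with no test. Grin1 held 3 (0.702 per kb), Grin2b 16 (0.665 per kb), Grin2a 22 (1.5 per kb) and Grin3a 11 (1.47 per kb). The remaining subunit genes had 0.914 to 1.23 per kb and Grina 1.16 per kb. All lay within the quartiles of 13936 tested coding genes, 0.651 to 1.51 per kb around a median of 1.05, and 93.0% of those genes held at least 1. Grin1, the member that passed the test, was thus below the median.

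An antisense gene lies within Grin1 and was looked at after its values were seen. Grin1 occupies chr2:25291181-25319187 on the minus strand (GRCm38) and Grin1os chr2:25291220-25298925 on the plus strand, wholly inside it. Of the 2891 exon bases of Grin1os, 1307 overlap Grin1 exons (13.5% of the Grin1 exon bases) and 1584 fall in Grin1 introns. Grin1os lay at 29.5, 32.1 and 31.6 CPM in cKO and 17.4, 22.2 and 22.4 CPM in Ctrl. All cKO libraries were higher, with a log2 fold change of 0.59 ± 0.09 (a fold of 1.504, edgeR adjusted p = 0.00246). It passed with the offsets (0.53, adjusted p = 0.00613) and without the library labelled Ctrl replicate 1 (0.48, adjusted p = 0.00305). It did not pass by limma-trend on FPKM, with log2 fold changes of 0.59 and 0.53 (adjusted p = 0.0512 and 0.0526 at pseudocounts of 0.1 and 1). Per 100 Grin1 counts there were 7.11, 7.66 and 7.16 Grin1os counts in cKO and 4.64, 5.77 and 5.87 in Ctrl (exact permutation p = 0.1). The labels and notes do not say whether counting used strand, so reads of Grin1os and of unspliced or exonic Grin1 RNA cannot be told apart.

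Other members overlap neighbours as well. Grin3b shares 1059 exon bases, 32.1% of its own, with Tmem259 on the opposite strand, which had 1689 to 2106 counts a library against 4 to 17 for Grin3b. How many Grin3b reads were lost or gained there was not tested, and its level is uncertain for that reason too. Grin2d shares 9.66% of its exon bases with the antisense gene Gm45441, which had 36 to 47 counts a library.

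Among the related receptor genes, none of the 4 AMPA subunit genes passed, and none had an unadjusted p under 0.05. Their median log2 fold change was 0.04, and Gria2, which makes AMPA receptors impermeable to calcium, had 0.05 ± 0.03 (edgeR adjusted p = 0.488). None of the 7 kainate and delta receptor genes passed in the main edgeR fit or by DESeq2, although 3 had an unadjusted p under 0.05. Grik4, a kainate receptor subunit, was at 0.18 ± 0.06 (edgeR adjusted p = 0.0933). Of the 7 TMBIM genes 6 were tested, Grina among them, and none passed in the main edgeR fit or by DESeq2. Of these 2 had an unadjusted p under 0.05, and Ghitm was at -0.11 ± 0.04 (edgeR adjusted p = 0.169). The share of all tested genes with an unadjusted p under 0.05 is not given here, so these counts are descriptions only. Of the glutamate receptor genes in these lists Grin1 alone was called in the main edgeR fit. That call ended on leaving out any 1 of 5 of the 6 libraries. Among other edgeR settings, Grin2c was called with no low-count filter (adjusted p = 0.0327) and 1 kainate or delta receptor gene with the replicate block.

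The genes around the receptor were read from 6 lists with 71 genes, of which 69 were tested. In all, 2 rose, 1 fell and 66 did not pass (4.35% called, beside 3.95% of all genes), with a median log2 fold change of -0.01. Among 14 calcium effectors 1 rose, 1 fell and 12 did not pass. Ppp3ca, a catalytic subunit of the calcium-dependent phosphatase calcineurin, fell from 2330 ± 43.9 CPM in Ctrl to 2114 ± 66.4 in cKO, a log2 fold change of -0.14 ± 0.04. Its edgeR adjusted p was 0.0387, and 0.0484 with the offsets and 0.0404 without the library labelled Ctrl replicate 1.

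Among 13 postsynaptic scaffold genes, Shank1, which links receptor complexes to the cytoskeleton, rose from 379.3 ± 25.9 CPM in Ctrl to 442.0 ± 21.6 in cKO, a log2 fold change of 0.22 ± 0.05 with an edgeR adjusted p of 0.0264. The offsets gave 0.10 with an adjusted p of 0.249, and leaving out the library labelled Ctrl replicate 1 gave an adjusted p of 0.0608, with Dlgap1, another scaffold gene, called in its place (0.15 ± 0.04, adjusted p = 0.0499). Dlg4, the main scaffold under GluN2 tails, was at 714.1 ± 14.1 CPM in Ctrl and 742.9 ± 13.9 CPM in cKO and did not pass (adjusted p = 0.45). Both Dlg4 and Dlgap1 were named after their values were seen.

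The other 4 lists had no called gene in the main edgeR fit. Their counts at an unadjusted p under 0.05 are descriptions only, because the share of all tested genes under it is not given here. Of 11 transport genes, 5 had an unadjusted p under 0.05, and Kif17, the motor that carries Grin2b vesicles along dendrites, had 0.29 ± 0.08 (adjusted p = 0.0503); DESeq2 called 1. Of 10 tested genes for co-agonist supply and glutamate uptake, 3 had an unadjusted p under 0.05, and the astrocyte glutamate transporter Slc1a3 had -0.12 ± 0.03 (adjusted p = 0.0655); DESeq2 called 2. Of 15 tested kinase, phosphatase and anchor genes, 3 had an unadjusted p under 0.05, with the tyrosine phosphatase gene Ptpn5, whose product (STEP) acts on Grin2b, at 0.14 ± 0.05 (adjusted p = 0.194), and DESeq2 called 0. Of 6 surface partners none had an unadjusted p under 0.05, and the synaptic adhesion gene Nlgn1 had -0.10 ± 0.05 (adjusted p = 0.332).

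Markers of some cell types moved with the groups. Over all tested genes 3.07% were called higher in cKO and 0.874% lower. Among 10 dentate granule cell markers 1 was called higher and 1 lower, and among 7 mossy cell markers 1 was called higher. None of the 10 oligodendrocyte or 5 blood cell markers was called. Summed astrocyte markers were 5549 to 5560 CPM in cKO and 5934 to 6102 CPM in Ctrl, with 3 of 10 called lower, and microglia markers were 332.8 to 350.6 CPM in cKO and 384.7 to 420.6 CPM in Ctrl, with 5 of 10 called lower. Interneuron markers overlapped, at 722.1 to 727.3 and 652.1 to 786.4 CPM. CA pyramidal markers were 274.2 to 286.1 CPM in cKO and 253.0 to 279.4 CPM in Ctrl, with 2 of 10 called higher. Leaving out the library labelled Ctrl replicate 1, 3 microglia markers were called lower and 1 CA pyramidal marker higher. Of the astrocyte markers 3 were then called lower and 1, Fgfr3, higher. That fit also called 1 granule cell marker higher and 2 lower, 1 mossy cell marker higher and 1 blood cell marker lower. Over all genes it called 2.21% higher in cKO and 0.705% lower. With the GC and length offsets 7 microglia and 3 astrocyte markers were called lower and 1 CA pyramidal marker higher. There 1 granule cell marker was called lower and 1 mossy cell marker higher, beside 1.65% of all genes higher and 0.922% lower. No oligodendrocyte, interneuron or immature granule neuron marker was called in any of these fits. Immature granule neuron markers were 479.5 to 505.2 CPM in cKO and 502.3 to 549.7 CPM in Ctrl, with none of 8 called by edgeR. Endothelial and mural markers were 143.1 to 149.2 CPM in cKO and 130.3 to 140.4 CPM in Ctrl, with none of 8 called by edgeR, and 1 called higher without that library. No marker had 0 counts over the 6 libraries together, but the choroid plexus markers Folr1 and Clic6 were too low to be tested. None of the 3 tested choroid plexus markers was called in any of these fits. The part of these shifts in the Grin1 and Slc1a3 values was not tested.

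Genes whose level ran most like that of a member were taken by the smallest root-mean-square difference of centred log2 CPM over the 6 libraries, among 13315 genes. For Grin1 they were Sec61a2 (0.00945), Tmem25 (0.0101), L1cam (0.0141), Kdm4b (0.0152) and Ppfia3 (0.0159), against a median of 0.135 over all eligible genes. For Grin2a they were Zfp729a, Blcap, Far1, Rabgap1 and Hdlbp, at 0.0147 to 0.0189. For Grin2b they were Zfp553, Fgf1, Ufsp2, Dlst and Trip12, at 0.0119 to 0.0174, and for Grina Pi4kb, Apcdd1, Vps39, Pom121 and Tex10, at 0.0104 to 0.0158. No member was eligible as another's neighbour, and all 6 libraries enter each value, so these are descriptions of shared ups and downs.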

How the data were processed

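The data were RNA-seq libraries of total RNA, extracted with Trizol and built with an NEBNext Ultra kit, per the labels' protocols. The authors deposited raw gene counts and FPKM values for 54040 genes in 6 libraries. The submitters' processing notes name the GRCm38 genome together with featureCounts 1.5.0-p3, HISAT2 2.0.5 and StringTie 1.3.3b. The role of each tool, the gene annotation and any use of strand are not given in those notes or the labels. Counts were tested in R 4.3.3 with edgeR 4.0.16 (TMM scaling, filterByExpr with a minimum count of 10, quasi-likelihood F test on group over all 16928 tested genes) and called under a Benjamini-Hochberg false discovery rate of 0.05. CPM values divide counts by TMM-scaled library size. Shares and ratios used the deposited FPKM and exact two-sided permutation tests over libraries. GC content, exon lengths and sequences came from GENCODE M21 on GRCm38; the offsets used a loess span of 0.3 and covered 98.7% of tested genes. DESeq2 1.42.0, limma 3.58.1 (voom, and trend on log2(FPKM + 0.1) and log2(FPKM + 1)), other filters, scalings and left-out libraries were alternatives. The members, gene lists and alternatives were chosen with earlier results of these data known. Named genes were the 8 members, up to 3 called genes of smallest p per list (or the 1 of smallest p where none was called), the 5 nearest genes of Grin1, Grin2a, Grin2b and Grina, and Ythdf2; Grin1os, Dlg4, Dlgap1, Fgfr3 and the overlapping neighbours, and the alternatives for marker calls and for the order of levels, were added after their values were seen. The edgeR, DESeq2 and limma-voom tests were checked on simulated counts, with fold changes larger than that of Grin1. The offsets, limma-trend, left-out libraries and permutation tests were not part of that simulation. The values of 1 called gene in the lists and some sequences are not reported here.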

Additional observations from a re-analysis of the deposited data

How the results depend on the processing

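The Grin1 log2 fold change stayed positive in all settings run. Its call was lost at 0.0488 with GC and length offsets (adjusted p = 0.557), 0.0487 with the replicate block and those offsets, 0.159 and 0.156 by limma-trend with pseudocounts of 0.1 and 1 FPKM (adjusted p = 0.0939 and 0.0895). Leaving out 1 library gave 0.137 to 0.183, and the call was kept only without cKO replicate 1, at 0.183. The count of called members was 2 with no low-count filter, 0 with the offsets (with or without the block), 0 by both FPKM fits and 0 to 1 leaving out 1 library. The pathway lists' count of 3 became 7 by DESeq2, 5 by limma-voom, 7 with no filter, 5 with at least 1 CPM in 3 libraries, 5 with the replicate block, 0 by both FPKM fits and 1 to 4 leaving out 1 library. Over all genes 668 calls became 1155 with no filter, 436 with the offsets, 110 and 95 by FPKM, and 214 to 535 leaving out 1 library. The Grin1os call was lost by both FPKM fits (0.588 and 0.533). Why these counts moved was not tested.

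The Grin1 share was 21.9% (CPM), 51.7% (longest transcript), 29.8% (coding sequence) and 9.98% with Grina in the sum, and 34.3 to 35.1% leaving out 1 library. The Grin2a share of GluN2 was 33.2%, 38.4% and 33.1% under the first 3 of these (34.3 to 34.9% leaving out 1 library), and the Grin2b share 61.4%, 43.2% and 60.5% (45.8 to 46.5%).

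Signs turned for Grin2a, whose log2 fold change was -0.00272 with RLE scaling, -0.000591 with library totals, -0.00271 by DESeq2, -0.00627 with no filter, -0.00115 with the stricter filter, -0.0121 with the offsets with or without the block, -0.0047 and -0.00453 by FPKM, and -0.0391 to 0.0324 leaving out 1 library. Leaving out 1 library also turned Grin2b (-0.0342 to 0.0144), Grin3b (-0.638 to 0.15), Ythdf2 (-0.293 to 0.0687) and the log2 ratio of Grin2a to Grin2b (-0.0332 to 0.0339). The NMDA to AMPA log2 ratio difference was -0.00804 with CPM. None of these was called in the main test.

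The deviations of same-numbered libraries had correlations of 0.0914, 0.018 and 0.00846. Of the cKO libraries replicate 1 alone was closest to its own number. The labels give only a number, and 3 libraries a group cannot show whether same-numbered libraries were handled together. With the replicate block 808 genes were called, Grin1 had an adjusted p of 0.028, and 1 kainate or delta receptor gene and 1 transport gene were called, against 0 of each without it. The stricter filter gave no value for Grin3b, and DESeq2 no adjusted p. Depth limits Grin3b, and 3 libraries a group cannot give an exact p under 0.1.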
